A study of Homo sapiens with 17 samples.

Results

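Eukaryotic initiation factor 3 (eIF3) is the largest of the factors that bring an mRNA onto the small ribosomal subunit. Its subunits are made from separate genes and assemble into 1 complex, which sits on the solvent side of the 40S subunit and touches the mRNA channel at both the entry and the exit side. A core of PCI and MPN domain proteins holds the complex together, and a second module of EIF3B, EIF3G and EIF3I lies near the mRNA entry. Because the subunits act together, cells need them in matched amounts, and in some settings parts of the complex also select which mRNAs are translated.

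Of the 13 subunits of the complex, 10 are described here as a fixed list of genes: EIF3A, EIF3B, EIF3D, EIF3E, EIF3F, EIF3G, EIF3H, EIF3I, EIF3K and EIF3L. The rule is a list of names and uses no measured value, although the list was drawn up with earlier results of these data known and leaves out EIF3C. The listed genes are 10 of 15660 genes with any count at 36 h and of 17023 at 72 h. All 10 passed the count minimum at both time points (a mean of at least 20 reads in the footprint and in the mRNA libraries), among 9016 genes tested at 36 h and 10896 at 72 h. The remaining subunits EIF3C, EIF3J and EIF3M, and EIF3CL, a near-identical copy of EIF3C, are given beside them.

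The libraries came from HEK293 cells, a human embryonic kidney cell line, electroporated with Cas9 protein or with the cleavage-dead dCas9, each bound to the same guide RNA (sgIntron) against intron 12 of JAK2. The control cells therefore went through the same electroporation and carried the same guide, without the cut. Ribosome footprints (mRNA pieces protected by ribosomes) and rRNA-depleted total RNA, called mRNA here, were sequenced 36 and 72 h later, with 2 or 3 libraries in each of 8 groups and 17 libraries in all. Each replicate was a plate of pooled electroporations of 1 cell line, with synthetic guides at 36 h and in vitro transcribed guides at 72 h, so the time points also differ in guide source and in alignment. For Cas9 footprints at 72 h the library titles read rcas9 and the treatment label reads Cas9, which was used.

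Footprint libraries held from 689636 to 4868580 counted reads at 36 h and from 3183559 to 8864461 at 72 h, and mRNA libraries from 25095493 to 42825661. The shallowest footprint library, dCas9 replicate e at 36 h, gave each of the 10 subunits between 107 and 517 reads, so the footprint values of 36 h carry the widest errors. JAK2, whose intron was the target, fell under the count minimum, with 0 to 23 footprint reads a library and 131 to 472 mRNA reads, so its level does not check the labels. Levels are given as CPM, read counts scaled to library size with TMM factors within a library type and time point. In bulk samples, fewer cells with a transcript and less of it per cell cannot be told apart.

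The counted coding regions of the subunits differ widely in length and base composition. EIF3A, the largest subunit and a scaffold of the core, lies at chr10:119033670-119080817 on the minus strand and was counted over its MANE transcript ENST00000369144 with 1382 codons and 47.2% GC. EIF3L, a PCI protein of the core, lies at chr22:37848868-37889407 on the plus strand and was counted over a transcript of 564 codons at 36 h and of 607 codons at 72 h. The shortest coding region was that of EIF3K (218 codons, chromosome 19), the most GC-rich that of EIF3G (60.2%, chromosome 19) and the least that of EIF3E (39.8%, chromosome 8). EIF3B is on chromosome 7, EIF3D on 22, EIF3F on 11, EIF3H on 8 and EIF3I on 1, all as placed by GENCODE release 44 on GRCh38. EIF3B, EIF3H and EIF3L were counted over different transcripts at 36 and 72 h, so their levels per codon are compared within a time point.

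Expressed per length, the highest and the lowest subunit of the complex were the same in nearly every library, and the middle places varied. EIF3I, a WD40 propeller protein, had the highest footprint density at both times: between 1825 and 1955 CPM per 1000 codons in the 4 libraries at 36 h (median 1842) and between 1669 and 1761 at 72 h (median 1712). EIF3A had the lowest, between 346.5 and 454.8 at 36 h (median 368.9) and between 385.7 and 419.5 at 72 h (median 409.4). EIF3I ranked first in 17 of 17 libraries and EIF3A last in 16 of 17, the exception being a library in which EIF3H was last. EIF3K stayed within places 2 to 3 and EIF3G within 2 to 4, whereas EIF3E ranged from 2 to 8, EIF3L from 4 to 8 and EIF3D from 5 to 9. In a complex with 1 copy of each subunit, the footprint densities of the listed subunits thus spanned 3.99- to 5.63-fold from highest to lowest within a library.

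Below EIF3I, the footprint order at 72 h ran from EIF3K (median 1520 CPM per 1000 codons) through EIF3G (1142), EIF3E (879) and EIF3B (748) to EIF3D (616), EIF3F (597), EIF3L (515), EIF3H (444) and EIF3A. Neighbours in this order were apart in every library except EIF3D with EIF3F and EIF3H with EIF3A, whose ranges overlapped. At 36 h, where depth was lower, only EIF3I with EIF3K and EIF3B with EIF3F did not overlap. EIF3K, a small PCI protein, and EIF3G, an RNA-binding subunit, held the next places in the footprints of both time points.

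The mRNA densities were closer together at 36 h. From highest to lowest they spanned 3.005- to 3.64-fold there, and 2.51- to 5.39-fold at 72 h. EIF3I was again first of the 10, with between 1660 and 1962 mRNA CPM per 1000 codons at 36 h. EIF3A was last of the 10, with between 535.1 and 629.6. EIF3L, which ranked 7 of 10 by footprints at 36 h, ranked 4 of 10 by mRNA, with between 1191 and 1326 mRNA CPM per 1000 codons against between 530.7 and 597.8 for its footprints.

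The spread over the 10 subunits, as an SD of the log2 density, was between 0.694 and 0.777 in the footprint libraries of 36 h and between 0.549 and 0.642 in the mRNA libraries of 36 h. At 72 h it was between 0.703 and 0.756 in footprints and between 0.455 and 0.745 in mRNA, where the Cas9 libraries had 0.745 and 0.621 and the dCas9 libraries 0.548 and 0.455. Across the 10 listed subunits, footprints were therefore less even than mRNA at 36 h. At 72 h the ranges overlapped, with Cas9 mRNA replicate a (0.745) above both Cas9 footprint libraries (0.724 and 0.718). The 8 CCT subunits, which form another complex with fixed proportions and fold newly made actin and tubulin, gave between 0.698 and 0.865 in footprints and between 0.769 and 0.857 in mRNA at 36 h, and between 0.583 and 0.620 in footprints and between 0.670 and 0.781 in mRNA at 72 h. No test was made of these spreads, since they describe chosen genes.

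**Figure D1:**
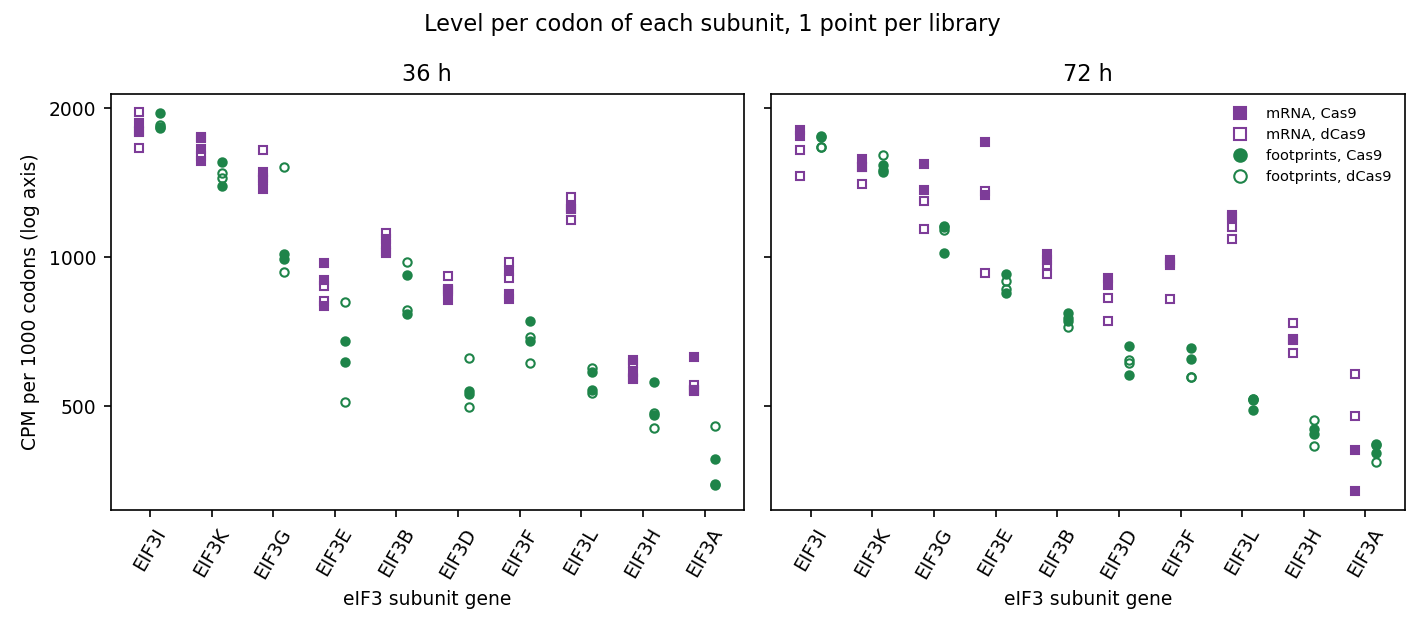
CPM per 1000 counted codons (log axis) of each eIF3 subunit at 36 h (left) and 72 h (right), 1 point per library, squares for mRNA and circles for footprints, filled for Cas9 and open for dCas9. EIF3I is highest in every library, EIF3A is last in 16 of 17, and the footprints of EIF3L lie well below its mRNA.

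The footprint to mRNA ratio of EIF3L was low in every library. On the log2 scale it was between −1.322 and −0.994, where the median gene lay between −0.237 and −0.176. At 36 h the footprint CPM over the mRNA CPM of the same lysate was 0.431 and 0.468 in the Cas9 cells and 0.502 and 0.400 in the dCas9 cells. At 72 h, where footprints were set over the mean mRNA of the same nuclease, it was 0.405 and 0.426 in Cas9 cells and 0.462 and 0.459 in dCas9 cells. Cas9 and dCas9 libraries overlapped at 36 h, and at 72 h both Cas9 values were the lower ones. The 2 values of a nuclease at 72 h share 1 mRNA mean, so they are not independent. The tested change of this ratio by Cas9 at 72 h was −0.15 on the log2 scale (SE 0.12) and was not called.

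In the dCas9 control cells the ratio of EIF3L, relative to the typical gene, was −0.99 on the log2 scale at 36 h (SE 0.11, adjusted p = 8.889e-06, quasi-likelihood test in edgeR, with the Benjamini-Hochberg adjustment over all genes, used throughout) and −0.97 at 72 h (SE 0.08, adjusted p = 5.817e-08). Of all genes tested, 13.1% had a lower ratio at 36 h and 16.4% at 72 h. EIF3L kept this call under each of the alternatives and omitted libraries tried, with values between −1.08 and −0.868. Its kept transcript changed between the time points and its ratio moved by less than its SE. Over all genes this ratio went with GC content (Spearman's rho 0.258 at 36 h and 0.347 at 72 h). It also went with the length of the counted coding region (−0.257 and −0.316). The part of either in single genes was not tested.

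Most of the other listed subunits also had a ratio below that of the typical gene, though less far below than EIF3L. Below 0 were 9 of 10 at 36 h and 7 of 10 at 72 h, beside 4572 of 9016 and 5745 of 10896 genes. For the others, from 27.1% (EIF3D) to 59.8% (EIF3I) of all genes had a lower ratio at 36 h. At 72 h this share ran from 30.7% (EIF3F) to 64.6% (EIF3I). At 36 h 4 of 10 passed a false discovery rate of 0.1, all lower, where 24.6% of all genes were called lower and 23.6% higher. At 72 h 6 of 10 were called lower and 2 higher, against 37.8% and 32.7% of all genes, and overall 48.2% of genes were called at 36 h and 70.6% at 72 h, so a called ratio is common. The median over the 10 was −0.21 at 36 h and −0.22 at 72 h, beside −0.01 and −0.06 over all genes. Outside the list, EIF3C was called higher at both times (0.33 at 36 h and 0.81 at 72 h). EIF3CL (−0.03 and 0.82) and EIF3J (0.40 and 0.57) were called higher at 72 h only, and EIF3M (−0.01 and −0.41) was called lower at 72 h only. EIF3C and EIF3CL have nearly the same counted coding sequence, so their ratios are not separate observations and their different values at 36 h are uncertain. Apart from this pair, EIF3I, EIF3K and EIF3J were called higher at 72 h, so a low ratio was not shared by all subunits of the complex.

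Beside EIF3L, the MPN subunit EIF3F (−0.37, SE 0.13, adjusted p = 0.0369 at 36 h in edgeR, and −0.50, SE 0.10, adjusted p = 3.378e-04 at 72 h) and the cap-binding subunit EIF3D (−0.53, SE 0.13, adjusted p = 0.00426 at 36 h, and −0.21, SE 0.09, adjusted p = 0.0653 at 72 h) were below the typical gene at both times, as was EIF3A (−0.31 and −0.25, adjusted p = 0.0850 and 0.0565). These calls were not all firm. That of EIF3A at 36 h was lost with DESeq2, median-ratio size factors or edgeR's expression filter and in 5 of 9 omissions of a library, where its value ran from −0.512 to −0.0948, the nearest to 0 without dCas9 footprint replicate d. That of EIF3F at 36 h was lost without a count minimum (adjusted p = 0.102) and without dCas9 mRNA replicate e (adjusted p = 0.174). EIF3H, the other MPN subunit, was at −0.19 at 36 h, which was not called (adjusted p = 0.3003), and at −0.50 at 72 h (adjusted p = 6.433e-04). EIF3B, which holds the entry-side module, was at −0.15 and −0.21, called at 72 h only. EIF3I (0.18 and 0.25) and EIF3K (−0.04 and 0.23) were called higher at 72 h, with adjusted p = 0.0188 and 0.0348.

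EIF3E, a PCI protein of the core, was at −0.15 and −0.24 and EIF3G at −0.22 and 0.05, with no call at either time. Both were called lower at 36 h without 1 footprint library of the dCas9 cells: EIF3E without replicate d (−0.56, adjusted p = 0.0202 in edgeR) and EIF3G without replicate e (−0.58, adjusted p = 0.00255). At 72 h, without dCas9 mRNA replicate a, EIF3E was called lower (−0.42, adjusted p = 0.00283) and EIF3G higher (0.21, adjusted p = 0.0697). At 36 h between 3 and 6 subunits were called when a library was left out. With DESeq2, with median-ratio size factors and with edgeR's own expression filter, 5 subunits in place of 8 were called at 72 h. The calls lost under all 3 were those of EIF3A, EIF3B and EIF3D. Without dCas9 footprint replicate f, 4 subunits were called at 72 h.

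**Figure D2:**
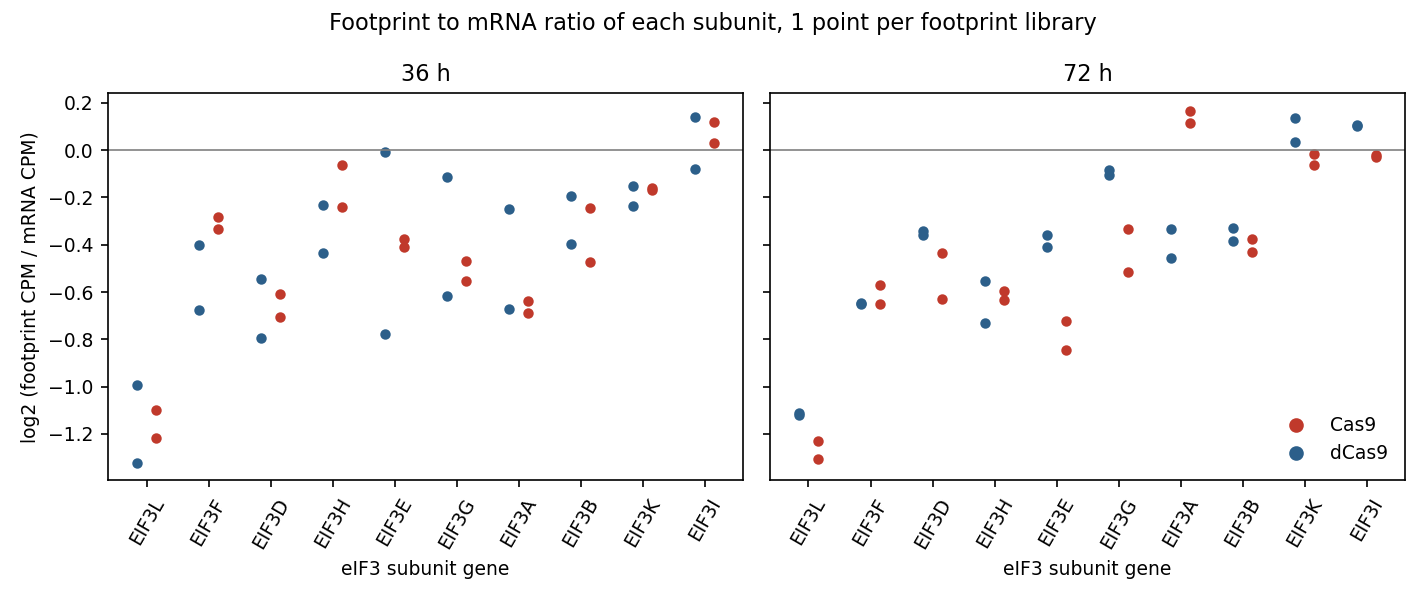
Log2 ratio of footprint CPM to mRNA CPM for each eIF3 subunit at 36 h (left, same lysate) and 72 h (right, mean mRNA of the same nuclease), 1 point per footprint library, red for Cas9 and blue for dCas9. The line at 0 marks equal CPM, while the median gene of a library lay between −0.237 and −0.176. EIF3L is lowest in each of the 8 footprint libraries, and the Cas9 points of EIF3A lie above its dCas9 points at 72 h.

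The comparison of Cas9 with dCas9 asked whether a double-strand break changed the subunits' translation or their transcripts. At 36 h none of the 10 was called in footprints, 0 of 10 had an unadjusted p under 0.05, and 0 of 9016 genes were called by edgeR or by DESeq2 (0% of all genes, with 188 genes, 2.09%, at an unadjusted p under 0.05). Differences ran from −0.27 for EIF3G (95% interval −0.69 to 0.16) to 0.15 for EIF3H (−0.31 to 0.61), with a median of −0.03 over the 10 and 0.01 over all genes. Footprints of EIF3A were 473 and 532 CPM in Cas9 cells and 472 and 620 CPM in dCas9 cells, which overlap (−0.11, SE 0.17, adjusted p = 0.999). No listed subunit had Cas9 and dCas9 footprint libraries that did not overlap at 36 h, where 15.9% of all genes lay wholly above and 14.6% wholly below.

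The footprint value of EIF3G at 36 h rested on 1 shallow library. Its footprints were 304 and 297 CPM in Cas9 cells and 280 and 456 CPM in dCas9 cells, and the difference was 0.10 without dCas9 replicate e. The narrowest of the 10 intervals at 36 h, that of EIF3I, ran from −0.27 to 0.34 on the log2 scale.

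mRNA of the subunits at 36 h was steadier. None of the 10 was called or had an unadjusted p under 0.05, beside 0.0222% of all genes called, and differences ran from −0.12 for EIF3F (95% interval −0.31 to 0.06) to 0.07 for EIF3E (−0.11 to 0.26), with a median of −0.01. EIF3A mRNA was 735, 729 and 858 CPM in Cas9 cells and 753 and 735 CPM in dCas9 cells (0.06, SE 0.09, adjusted p = 0.999). No subunit's mRNA libraries were apart by nuclease at 36 h, where 8.6% of all genes lay above and 8.29% below.

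Translational efficiency, the change in footprints less the change in mRNA, was not called for any of the 10 at 36 h either, with 0% of all genes called by edgeR, 1 gene called by DESeq2 and 568 genes at an unadjusted p under 0.05 in edgeR. The values ran from −0.14 for EIF3E to 0.24 for EIF3F, whose 95% interval was −0.11 to 0.58. EIF3A was at −0.14 and EIF3G at −0.13.

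At 72 h the footprints again showed no called change in the 10 subunits and none at an unadjusted p under 0.05, beside 0.0367% of all genes called. The differences were smaller and more precise than at 36 h, between −0.06 for EIF3G and 0.16 for EIF3F, with a median of 0.01 and a median SE of 0.08. EIF3F had 222 and 210 CPM in Cas9 cells and 193 and 194 CPM in dCas9 cells, which do not overlap (0.16, SE 0.08, unadjusted p = 0.0671, adjusted p = 1.000). EIF3I was the other subunit with both Cas9 libraries above both dCas9 libraries, at 535 and 539 CPM against 512 and 511 CPM (0.07, SE 0.07), where 15.8% of all genes lay so.

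EIF3A footprints at 72 h were 548 and 568 CPM in Cas9 cells and 572 and 526 CPM in dCas9 cells (0.03, 95% interval −0.11 to 0.16). EIF3E footprints were 393 and 361 CPM against 381 and 368 CPM (0.01, 95% interval −0.14 to 0.15). In both genes the libraries overlapped.

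At 72 h 1 of the 10 subunits changed in mRNA, EIF3A, at an adjusted p close to the threshold. EIF3A mRNA was 458 and 555 CPM in Cas9 cells (507 ± 68.6, SD, n = 2) and 652 and 791 CPM in dCas9 cells (721 ± 98.4, SD, n = 2). Both Cas9 libraries lay below both dCas9 libraries, and EIF3A fell by 0.51 on the log2 scale (0.702-fold, SE 0.13, 95% interval −0.77 to −0.25, edgeR adjusted p = 0.0977). Beside this 1 of 10, 2.69% of all genes were called, 290 lower and 3 higher.

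The direction of EIF3A held in each alternative, between −0.66 and −0.36, and the call did not. It was lost with median-ratio size factors (adjusted p = 0.137), with the longest coding part of each gene (0.101, with the transcript of EIF3A itself the same) and without Cas9 replicate a (−0.38, adjusted p = 1.000). DESeq2 gave −0.51 with adjusted p = 0.0698.

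The other 9 subunits did not pass the test at 72 h, and 2 of 10 (EIF3A and EIF3H) had a difference below 0, where 46.9% of all genes did. EIF3E mRNA had the largest, with 727 and 570 CPM in Cas9 cells (648 ± 111, SD, n = 2) and 396 and 580 CPM in dCas9 cells (488 ± 130, SD, n = 2). Its libraries overlapped, and the difference of 0.41 (SE 0.17, 95% interval 0.07 to 0.74) had an adjusted p of 0.301 in edgeR. Without dCas9 replicate b it was 0.71 with an adjusted p of 0.0244.

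EIF3G mRNA was 465 and 413 CPM in Cas9 cells and 391.9 and 343 CPM in dCas9 cells (0.26, SE 0.12, adjusted p = 0.352 in edgeR). EIF3I mRNA was 555 and 537 CPM against 505 and 446 CPM (0.20, SE 0.11), and EIF3D mRNA 465 and 481 CPM against 438 and 394 CPM (0.18, SE 0.11). In these 3 genes, and in EIF3B (0.08) and EIF3L (0.11), both Cas9 libraries lay above both dCas9 libraries. That is 5 of 10 subunits above and EIF3A below, where 24.4% of all genes lay above and 25.2% below.

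EIF3F (0.12), EIF3K (0.08) and EIF3H (−0.02) overlapped between the nucleases, with SEs of 0.12 each. The median over the 10 was 0.12, beside 0.02 over all genes. For the 8 CCT subunits it was 0.23, with 8 of 8 above 0 and 0 called.

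The mRNA differences at 72 h went with base composition and length over all genes. Across 10856 genes with a GC value, the log2 difference had a Spearman's rho of −0.416 with the GC content and −0.213 with the length of the counted coding region. These genes share the same 4 libraries and are not independent replicates. EIF3A has the longest coding region of the 10 and EIF3E the lowest GC content, and the part of either in the changes was not tested for single genes. With an offset for GC content, 7 of 10 subunits were called, beside 2758 of all 10896 genes tested (1329 higher and 1429 lower). EIF3A was lower (−0.52, adjusted p = 0.00336 in edgeR). EIF3B, EIF3D, EIF3E, EIF3F, EIF3G and EIF3I were higher, between 0.19 for EIF3B and 0.37 for EIF3G. The difference of EIF3E was 0.21 with that offset.

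**Figure D3:**
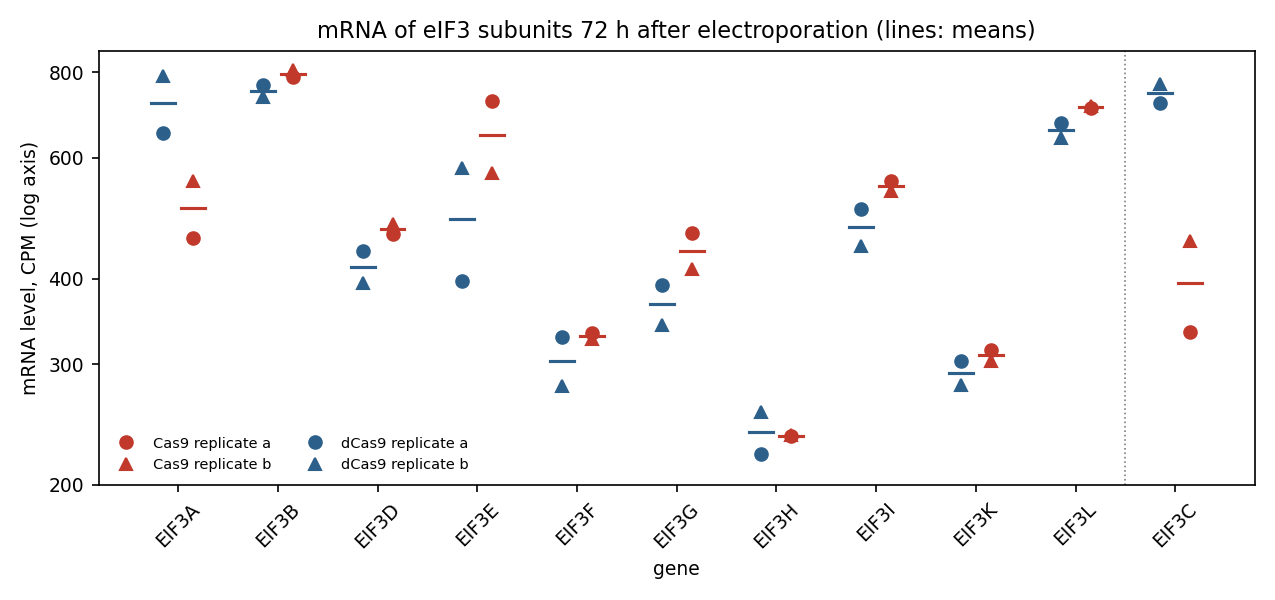
mRNA level in CPM (log axis) of each eIF3 subunit, with EIF3C at the right of the dotted line, in the 4 mRNA libraries at 72 h, circles for replicate a and triangles for replicate b, red for Cas9, blue for dCas9 and lines for group means. EIF3A and EIF3C are lower in both Cas9 libraries, while EIF3B, EIF3D, EIF3G, EIF3I and EIF3L are higher in both.

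Translational efficiency at 72 h followed from these transcript values, since footprints hardly differed. None of the 10 was called, beside 0.716% of all genes (76 higher and 2 lower). An unadjusted p under 0.05 in edgeR was found for 2 of 10 (EIF3A and EIF3G), beside 1220 of all 10896 genes. EIF3A had the largest value at 0.54 (SE 0.16, 95% interval 0.23 to 0.84, adjusted p = 0.183 in edgeR), and it was called with DESeq2 (0.55, adjusted p = 0.0602), with median-ratio size factors (adjusted p = 0.0889), with the GC offset (adjusted p = 0.00815) and without a count minimum (adjusted p = 0.0129). It was also called without Cas9 mRNA replicate b, dCas9 mRNA replicate a or dCas9 mRNA replicate b (adjusted p between 0.0141 and 0.0656). EIF3E was at −0.40 (SE 0.21) and was called without dCas9 mRNA replicate b (−0.65, adjusted p = 0.0225 in edgeR). EIF3G was at −0.32 (SE 0.14) and was called with the GC offset (−0.45, adjusted p = 0.0189 in edgeR). The median over the 10 was −0.13, and 7 of 10 lay below 0, where 49.9% of all genes did.

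Whether the mRNA change differed between 72 and 36 h was tested as an interaction over the mRNA libraries of both times. Guide source, aligner and annotation release changed with time, so their parts in a difference cannot be told apart from that of time. EIF3A differed by −0.58 (SE 0.17, unadjusted p = 0.00346, adjusted p = 0.194 in edgeR), which missed the threshold, and EIF3G by 0.35 (SE 0.14, adjusted p = 0.337). None of the 10 was called, beside 0.613% of 8970 genes. EIF3A was called without Cas9 replicate b of 72 h (−0.72, adjusted p = 0.0973 in edgeR) or without dCas9 replicate a of 72 h (−0.69, adjusted p = 0.0152). EIF3E differed by 0.32 (adjusted p = 0.573 in edgeR) with all libraries and was called without dCas9 replicate b of 72 h, at 0.64 (adjusted p = 0.0807). For footprints 0 of 8970 genes were called in edgeR, and no listed subunit had an unadjusted p under 0.05.

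**Figure D4:**
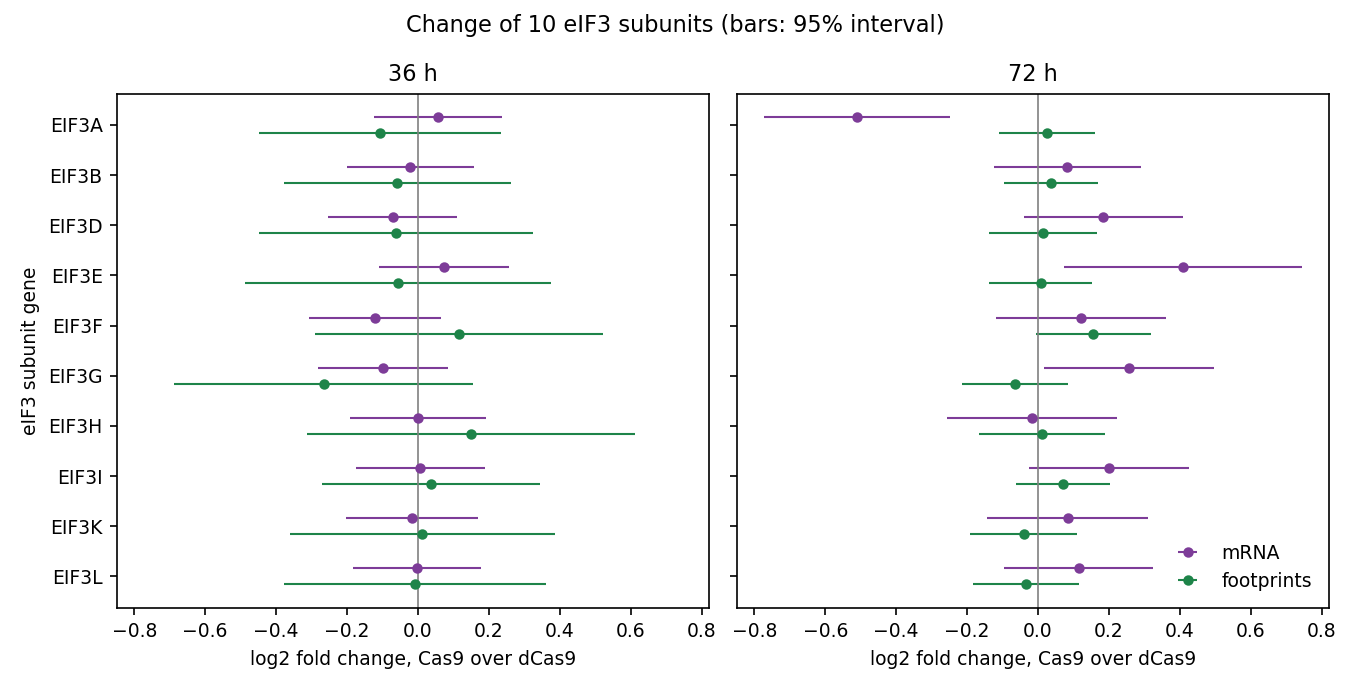
Log2 fold change of Cas9 over dCas9 for the 10 eIF3 subunits at 36 h (left) and 72 h (right), purple for mRNA and green for footprints, with bars for the 95% interval of the edgeR fit. The footprint intervals all include 0, and EIF3A mRNA at 72 h (−0.51) is the only called change.

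EIF3C, the PCI partner of EIF3A in the core and no member of the list, showed a larger drop in mRNA at 72 h. Its mRNA was 334 and 454 CPM in Cas9 cells (394 ± 85.2, SD, n = 2) and 722 and 768 CPM in dCas9 cells (745 ± 32.2, SD, n = 2), with no overlap. It fell by 0.92 on the log2 scale (0.529-fold, SE 0.14, edgeR adjusted p = 0.0243). EIF3CL gave the same change (−0.92). The counted coding sequences of the pair differ by a gap of 3 bases and by 0 other bases in GENCODE release 44, so nearly every read could come from either gene and their levels are uncertain. At 72 h their counts were near-equal, with 11467 and 11372 mRNA reads in Cas9 replicate a for EIF3C and EIF3CL. At 36 h they were not, with 34096 and 37917 mRNA reads but 1065 and 911 footprint reads in Cas9 replicate a. The split of counts between the pair thus differed at the 2 time points, and how reads were assigned was not tested.

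Footprints of EIF3C at 72 h were 1185 and 1200 CPM in Cas9 cells and 1161 and 1197 CPM in dCas9 cells (0.02, SE 0.06), which overlap. Its translational efficiency was 0.94 (SE 0.16, adjusted p = 0.0270 in edgeR), a call that was lost without any of the 4 footprint libraries (adjusted p between 0.155 and 0.338). Its mRNA call was lost without Cas9 replicate a (−0.71, adjusted p = 0.215), as was that of EIF3A.

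EIF3J, a loosely bound subunit, had 28.5 and 31.1 mRNA CPM in Cas9 cells and 35.4 and 44.1 CPM in dCas9 cells at 72 h (−0.42, SE 0.15, adjusted p = 0.235 in edgeR). EIF3M, a PCI protein of the core, had 359 and 337 CPM against 251 and 308 CPM (0.32, SE 0.13, adjusted p = 0.292). Thus EIF3C, EIF3CL and EIF3J lay wholly below the dCas9 libraries and EIF3M wholly above, where 25.2% of all genes lay below and 24.4% above. EIF3C and EIF3CL are not separate observations here. At 36 h EIF3M footprints were 106 and 185 CPM in Cas9 cells and 221 and 232 CPM in dCas9 cells (−0.61, SE 0.26, unadjusted p = 0.0288, adjusted p = 0.999), a value that ran from −1.09 without Cas9 replicate c to −0.295 without Cas9 replicate a.

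Of 18 partner genes of the initiation pathway (the start-codon factors EIF1, EIF1AX, EIF1B, EIF5 and EIF5B, the eIF2 subunits, the cap-binding and helicase factors and ABCE1), none was called in any comparison of Cas9 with dCas9 when all libraries were used. At 72 h 10 of 18 mRNAs lay above 0 and 8 below. The largest mRNA differences were those of EIF1, a guard of start-codon choice (−0.53, SE 0.15, adjusted p = 0.129 in edgeR), and of EIF5B, which joins the ribosomal subunits (−0.52, SE 0.19, adjusted p = 0.228). Their translational efficiencies of 0.59 and 0.57 were the largest of the partners at 72 h. Without dCas9 mRNA replicate a both mRNA differences were called, at −0.68 for EIF1 (adjusted p = 0.0360 in edgeR) and −0.81 for EIF5B (adjusted p = 0.0188), as they were with the GC offset.

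At 36 h EIF5B had the largest partner values, with −0.72 in footprints (SE 0.27, unadjusted p = 0.0158), 0.33 in mRNA (SE 0.12, unadjusted p = 0.00424, adjusted p = 0.873 in edgeR) and −1.02 in translational efficiency (adjusted p = 0.780 in edgeR). Its mRNA value ran from 0.0823 without dCas9 replicate e to 0.627 without dCas9 replicate d, where it was called (adjusted p = 0.00841 in edgeR). EIF1B came next, with −0.56, 0.27 and −0.84 and SEs of 0.63, 0.29 and 0.61. In the footprints of 72 h the largest partner values were −0.17 for EIF1AX (SE 0.09) and −0.14 for EIF5 (SE 0.12).

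The subunits did not vary as 1 unit from library to library. After centring log2 CPM within each time point and library type, EIF3I, EIF3D and EIF3B had Pearson correlations of 0.656, 0.647 and 0.607 with the mean of the other 9 over the 17 libraries, while EIF3A was at −0.672 and EIF3E at −0.395. The non-member genes most like the mean of the 10 were RPS18 (0.883), MYL6 (0.882) and RPS25 (0.876), where the median over all non-members of 8970 genes was −0.046. RPS18 and RPS25 are proteins of the small ribosomal subunit and MYL6 is a myosin light chain. These correlations are descriptions over libraries that share their depth, base composition and groups.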

How the data were processed

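Ribosome footprints and mRNA of HEK293 cells were compared between Cas9 and dCas9 at 36 and 72 h. The authors aligned reads to GENCODE on GRCh38 with hisat2 at 36 h (the submitters' notes name HISAT2 2.1.0) and with tophat at 72 h, and counted them on transcripts by fp-count. The deposited values are raw counts per transcript beside a length in codons, which is 17 to 20 codons shorter than the annotated coding region for these genes. Listed transcripts of EIF3C with the same coding length carry the same count, so a read counted for each of them. EIF3C and its copy EIF3CL had near-equal counts at 72 h and unequal ones at 36 h, and how reads with several alignments were handled is not given in the sources used here.

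Groups followed the labels. Transcripts were matched to GENCODE release 44 genes, and each gene kept the transcript with the highest summed count per time point. The labels name equal molar doses of nuclease and guide, while the methods give more than 1 dose. Cas9 replicate b of 36 h entered by its mRNA library alone.

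Genes with a mean of at least 20 reads in both library types were tested by edgeR 4.0.16 (R 4.3.3, TMM, glmQLFTest), with p-values adjusted over all genes and a false discovery rate of 0.1. Footprints and mRNA were each fitted alone, because a joint fit made more false footprint calls on simulated 36 h data, though not on simulated 72 h data. Translational efficiency and the footprint to mRNA ratio need both types in 1 fit. On simulated 36 h data that fit made more false calls of translational efficiency than the set rate allows, so p-values of both measures may be too small at 36 h. An SE is the log2 change over the root of F. Alternatives were DESeq2 1.42.0, median-ratio size factors, no count minimum, filterByExpr, the longest coding part, a joint fit, a GC offset, a replicate block and the omission of each library. The crossed block and the interaction with time were added after the data were seen. The paper divided lysates between the 2 library types, so at 36 h the same letter was read as 1 lysate. Deviations of such footprint and mRNA libraries had correlations of 0.062 in Cas9 and 0.0101 in dCas9 cells. The main fits did not use this pairing. At 72 h, Cas9 and dCas9 libraries of the same letter had correlations of 0.0126 for footprints and −0.139 for mRNA. A replicate was 1 plate of pooled electroporations of the same cell line, so p-values measure the spread between plates. Named genes were all 10 subunits, EIF3C, EIF3CL, EIF3J and EIF3M, partners that were called or else the 2 with the largest change in each comparison, and the 3 genes most like the mean of the subunits. Members and lists were chosen with earlier results of these data known.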

Additional observations from a re-analysis of the deposited data

Results flagged for a closer look

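The mRNA change at 72 h differed from that at 36 h for EIF3C (−0.94 on the log2 scale, SE 0.17, adjusted p = 0.0353 for the interaction in edgeR) and for its copy EIF3CL (−0.97, SE 0.17, adjusted p = 0.0318). Nearly every read of this pair could come from either gene, so they are not independent observations, and their counts differ at 36 h and are near-equal at 72 h. Both Cas9 libraries lay below both dCas9 libraries at 72 h and the groups overlapped at 36 h. Guide source, aligner and annotation release also differ between the times and cannot be told apart from time. The call was lost without Cas9 replicate b, Cas9 replicate c or dCas9 replicate e of 36 h and without Cas9 replicate a of 72 h.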

How the results depend on the processing

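The depth of the footprint libraries at 36 h and the 2 libraries a group at 72 h limit these results, and 1 library decided several counts. The longest coding part picked the same transcript for each of the 10 subunits, so it is no test of the levels per codon. In the comparisons of Cas9 with dCas9 no subunit was called in footprints at either time, or in mRNA or translational efficiency at 36 h, under any alternative or omission tried. Deviations of libraries with the same letter were little correlated, so the fits with a replicate block are given here only.

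For mRNA at 72 h the number of subunits called was 1 as reported, 0 with median-ratio size factors or the longest coding part, 7 with the GC offset, 2 with the replicate block, 9 with the replicate block and GC offset together, and between 0 (without Cas9 replicate a) and 2 (without dCas9 replicate b) when a library was left out. Over all genes it was 293 as reported, 185 with median-ratio size factors, 493 without a count minimum, 613 with both library types in 1 fit, 2758 with the GC offset, 726 with the replicate block, 3619 with the block and GC offset, and between 5 (without Cas9 replicate a) and 2828 (without dCas9 replicate b). For translational efficiency at 72 h, 0 subunits were called as reported, 1 with DESeq2, median-ratio size factors, no count minimum or the replicate block, 2 with the GC offset or with the block and GC offset, and between 0 and 2 with a library left out. The gene totals were 78 as reported, 221 with DESeq2, 170 with median-ratio size factors, 260 without a minimum, 595 with the GC offset, 759 with the block and GC offset, and between 1 and 1065. A crossed pairing of the mRNA letters, chosen after seeing the data, gave 829 genes and 2 subunits for mRNA, and 249 genes and 1 subunit for translational efficiency.

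For mRNA at 36 h, 0 genes were called with DESeq2, median-ratio size factors, the joint fit or the GC offset and 1 with filterByExpr, against 2 as reported and between 0 and 218 with a library left out. Translational efficiency at 36 h had 1 gene with DESeq2 and between 0 and 474 with a library left out, against 0. Footprints at 36 h had between 0 and 72 genes with a library left out. Footprints at 72 h had 7 genes with filterByExpr, the GC offset, the replicate block or both together, 0 in the joint fit and between 1 and 41 with a library left out, against 4. The interaction with time had between 1 and 269 genes and 0 to 1 subunits for mRNA, and between 0 and 40 genes for footprints. The ratio in dCas9 cells at 72 h had 5 subunits with DESeq2, median-ratio size factors or filterByExpr and between 4 and 8 with a library left out, against 8.

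The difference of EIF3E mRNA at 36 h was −0.0229 with the GC offset. Leaving out 1 library turned the sign of values near 0, with these ranges. Footprints at 36 h ranged from −0.302 to 0.0936 for EIF3A, −0.603 to 0.101 for EIF3G and −0.980 to 0.0598 for EIF1B. Footprints at 72 h ranged from −0.0343 to 0.0867 for EIF3A, −0.0537 to 0.0714 for EIF3E, −0.164 to 0.0162 for EIF3G, −0.0052 to 0.0383 for EIF3C and −0.335 to 0.0089 for EIF5. mRNA at 36 h ranged from −0.0231 to 0.0985 for EIF3A and −0.0145 to 0.603 for EIF1B, and at 72 h from −0.116 to 0.0938 for EIF3H. Translational efficiency at 36 h ranged from −0.357 to 0.0598 for EIF3A and −0.507 to 0.219 for EIF3G. The ratio in dCas9 cells at 36 h ranged from −0.314 to 0.0356 for EIF3B, −0.560 to 0.0845 for EIF3E, −0.575 to 0.151 for EIF3G and −0.105 to 0.0161 for EIF3K, and at 72 h from −0.421 to 0.0667 for EIF3E and −0.0399 to 0.215 for EIF3G. Of 57 further single-gene values, not printed, 688 of 783 refits kept sign and side of the threshold, 91 turned sign, 3 gained a call and 1 lost it. The causes of these changes were not tested.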
